A study of Mus musculus with 20 samples.

Results

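Neurones that have just been active switch on a set of genes within minutes to hours, and the mRNAs of Arc and 9 genes that are induced in the same way are described here in the mouse hippocampus. The 10 genes were Arc, Homer1, Nptx2, Bdnf, Vgf, Dusp1, Dusp5, Gadd45g, Btg2 and Ier2, chosen by name. They were read by 18 of the 45037 probe sets of the array, each annotated to 1 of these symbols alone, and every gene is given by its probe set with the highest mean over all mice. The tissue was whole hippocampus of male C57BL/6J mice, 1 Affymetrix Mouse Genome 430 2.0 array per mouse, in 5 groups of 4 mice. WT_Y were young wild-type mice of 6 months. WT_AU and WT_AI were aged wild-type mice of 24 months, separated by their own spatial memory in a Y-maze into memory-unimpaired and memory-impaired mice. KO_Y and KO_A were young (6 months) and aged (24 months) mice homozygous for a targeted disruption of Hsd11b1, congenic on C57BL/6J and without the gene in every tissue. Hsd11b1 encodes 11β-HSD1, which regenerates active glucocorticoid inside cells, and its chip intensity lay between 549.6 and 804.2 in wild-type and between 39.5 and 65.2 in knockout mice. The hippocampi were collected on a morning some days after the maze, so that the levels are not those of a training session.

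Activity-induced transcription begins with calcium entry through glutamate receptors and L-type channels and with the ERK pathway, which act on transcription factors already present in the nucleus, such as CREB and SRF. Some of the genes so induced encode transcription factors, and others encode effectors that act at the synapse or shut the signal off again. Arc promotes the removal of AMPA receptors from the synapse and is needed for lasting forms of plasticity and memory. Homer1 encodes a scaffold of metabotropic glutamate receptors, whose short Homer1a form is the activity-induced one, and Nptx2 a secreted pentraxin that gathers AMPA receptors. Bdnf encodes a neurotrophin and Vgf a secreted precursor of neuropeptides. Dusp1 and Dusp5 encode phosphatases that inactivate MAP kinases, Dusp5 being a nuclear phosphatase of ERK, and Dusp1 is also induced by glucocorticoids. Gadd45g takes part in stress signalling, Btg2 in the restraint of proliferation and in mRNA decay, and Ier2 is a short-lived nuclear protein.

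Stretches of 250 bases before the transcription start are shown for 4 of the genes. Dusp1, Btg2 and Dusp5 were chosen because Dusp1 varied from mouse to mouse with both others by r, though with Btg2 not by rho. Homer1, with r between -0.36 and 0.20 to these genes, is shown beside them. Whether the motifs have a part in this variation was not tested. RefSeq windows of 300 bases (build GRCm38.p6) were at hand for 6 of the 10 genes, 13 windows in all. Capitals mark the motifs found on either strand: the cAMP response element CRE (TGACGTCA), its half-site (TGACG, which every CRE contains), AP-1 (TGANTCA), the EGR motif (GCGNGGGCG), the CArG box bound by SRF, and TATAAA.
Dusp1, chr17:26508473-26508722, minus strand: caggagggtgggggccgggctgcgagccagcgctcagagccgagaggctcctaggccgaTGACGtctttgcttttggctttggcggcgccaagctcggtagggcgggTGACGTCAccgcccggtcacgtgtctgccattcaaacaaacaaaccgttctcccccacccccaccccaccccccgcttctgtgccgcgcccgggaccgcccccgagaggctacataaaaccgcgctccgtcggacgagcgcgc
Btg2, chr1:134079156-134079405, minus strand: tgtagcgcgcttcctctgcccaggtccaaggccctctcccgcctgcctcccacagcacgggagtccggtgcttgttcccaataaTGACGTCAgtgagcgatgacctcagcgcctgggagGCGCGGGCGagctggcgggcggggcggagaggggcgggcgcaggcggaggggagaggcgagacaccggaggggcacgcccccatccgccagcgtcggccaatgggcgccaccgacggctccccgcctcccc
Dusp5, chr19:53528895-53529144, plus strand: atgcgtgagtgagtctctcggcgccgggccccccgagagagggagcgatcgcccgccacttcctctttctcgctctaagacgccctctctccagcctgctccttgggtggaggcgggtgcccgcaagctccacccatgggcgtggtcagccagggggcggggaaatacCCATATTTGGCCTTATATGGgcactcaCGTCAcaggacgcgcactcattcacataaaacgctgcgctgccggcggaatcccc
Homer1, chr13:93303507-93303756, plus strand: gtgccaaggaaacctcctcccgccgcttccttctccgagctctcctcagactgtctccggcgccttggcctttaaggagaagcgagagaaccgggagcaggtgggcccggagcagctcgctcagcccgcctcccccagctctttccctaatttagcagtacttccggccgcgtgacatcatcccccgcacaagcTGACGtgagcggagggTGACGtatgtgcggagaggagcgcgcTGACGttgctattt
Dusp1 held a full CRE that begins at position -143 from the start and Btg2 one at position -166, and 1.79% of the 32851 RefSeq windows of this length held one. Btg2 also held an EGR motif at position -131, which 5.55% of windows held. Dusp5 held a pair of adjoining CArG boxes at positions -82 and -72, followed by a half-site, and 1.63% of windows held a CArG box. Homer1 held half-sites at positions -56, -40 and -14, a motif found in 20.8% of windows. Of the other windows, that of Gadd45g held TATAAA at position -27 (13.6% of windows), and among the 7 of Bdnf 1 held an AP-1 motif (7.81% of windows) and 1 a half-site. The other window of Homer1 held none of these motifs. A match of letters is a description of the sequence and not a measured binding site.

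Chip intensities were deposited on a linear scale after normalisation by the robust multichip average and were taken to log2 for all tests. Array medians lay between 39.4 and 41.3. A probe set was tested where at least 2 arrays reached an intensity of 100, which left 16995, and 9 of the 10 genes passed. Nptx2 did not reach 100 in any mouse and was not tested in the fit. All 6 neurone markers, 4 of 5 dentate granule cell markers, 5 of 5 CA1 and 3 of 4 CA3 markers passed the same filter. Some arrays also carried transcripts made outside the brain: the chip intensity of Alb, which encodes serum albumin and is a liver gene, was 2911.9 in WT_Y-374, 1670.4 in WT_Y-369, 889.3 in KO_A-42 and 747.2 in KO_Y-578, the 4 highest of the 20 mice, and values without these arrays are given below. In whole tissue, fewer cells of a type and less RNA per cell cannot be told apart. Fits used limma over all 5 groups, with p adjusted by the Benjamini-Hochberg method over all probe sets tested and a call at an adjusted p under 0.05.

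Arc mRNA levels were lower in WT_AI than in the other 4 groups by their means. The chip intensities were 565.8, 519.7, 344.3 and 505.8 in the WT_Y mice, a mean of 483.9 ± 96.5 (SD, n = 4). They were 466.0, 365.3, 525.4 and 488.0 in the WT_AU mice (461.2 ± 68.5, SD, n = 4) and 314.9, 296.8, 283.2 and 465.3 in the WT_AI mice (340.0 ± 84.5, SD, n = 4). Of the WT_AI mice, 3 lay below every mouse of the other groups, and mouse WT_AI-51 lay among them. In the knockout mice, Arc read 460.1, 531.5, 608.4 and 329.4 in KO_Y (482.4 ± 118.6, SD, n = 4) and 418.9, 544.0, 346.6 and 581.7 in KO_A (472.8 ± 109.2, SD, n = 4). In order of their means, WT_Y, KO_Y, KO_A and WT_AU followed each other within their spread, and WT_AI came last, its range overlapping that of WT_AU. The study had picked Arc from these same mice, so that its own differences are not independent evidence.

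**Figure D1:**
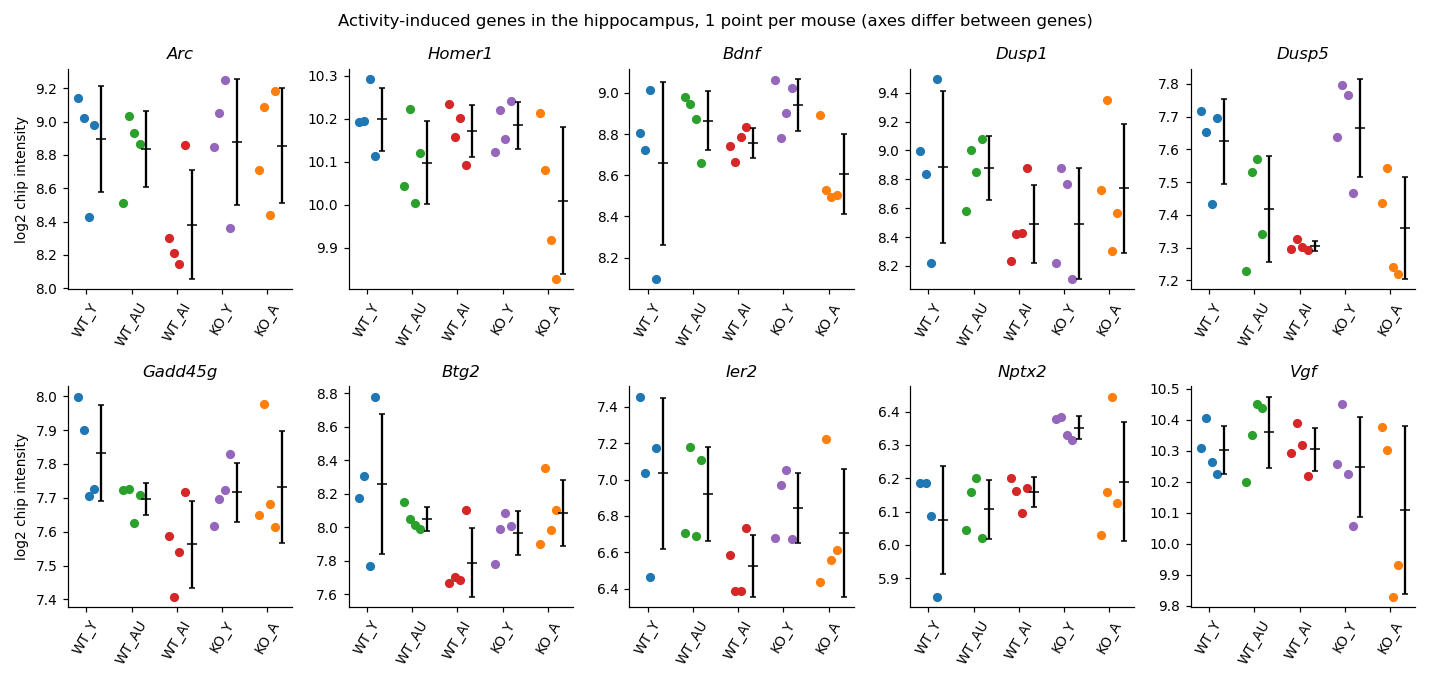
Log2 chip intensity of each of the 10 genes (vertical axes, scaled for each gene) in the 5 groups (horizontal axes), with 1 point per mouse and, to its right, the group mean with bars of 1 SD (n = 4). In Arc, 3 of the 4 WT_AI mice lie lowest of all 20, and the Dusp5 values of WT_AI lie close together, between 156.8 and 160.6 on the linear scale.

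Arc in WT_AI stood at 0.70 of its level in WT_Y, a log2 fold change of -0.51 (SE 0.21, 95% confidence interval -0.95 to -0.08). The limma p was 0.0234 before and 0.897 after adjustment over all probe sets, so Arc was not called. The exact two-sided permutation test gave p = 0.0571, where 4 mice against 4 can give no p below 0.0286. Against WT_AU the log2 fold change was -0.46 (SE 0.21, adjusted p = 1 by limma), and against KO_A it was -0.48 (SE 0.21, adjusted p = 0.451 by limma). Between the other groups the Arc means were close: the log2 fold change was -0.06 for WT_AU against WT_Y, -0.02 for KO_A against KO_Y and -0.02 for KO_Y against WT_Y. Their 95% confidence intervals were wide (-0.49 to 0.38, -0.46 to 0.41 and -0.45 to 0.42), so that a difference somewhat smaller than that of WT_AI was not detectable here. The age effect in knockout mice minus that in WT_AI was 0.49 (SE 0.29, 95% confidence interval -0.13 to 1.11, adjusted p = 0.597 by limma).

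The genes for the signal's own brakes and for growth control had lower means in WT_AI than in WT_Y, with none called. Dusp5 read 210.2, 201.2, 172.7 and 207.3 in WT_Y and 157.0, 160.6, 157.9 and 156.8 in WT_AI. All WT_AI mice lay below all WT_Y mice, the only gene of the 10 for which these ranges did not overlap, and 1.57% of all probe sets tested were lower in WT_AI with no overlap. Its log2 fold change was -0.32 (SE 0.09, 95% confidence interval -0.51 to -0.13, limma p = 0.00249, adjusted p = 0.347, exact permutation p = 0.0286, the smallest possible). Dusp1 read 509.8, 457.2, 298.4 and 722.9 in WT_Y and 301.1, 343.2, 344.5 and 469.4 in WT_AI, and the widest spread of the 10 genes left its groups overlapping. Btg2 read 288.9, 316.6, 218.1 and 439.8 in WT_Y and 203.8, 208.6, 205.7 and 274.5 in WT_AI, so that only mouse WT_AI-51 reached into the young range. The Btg2 log2 fold change was -0.47 (SE 0.15, limma adjusted p = 0.603, exact permutation p = 0.0571), and -0.29 without mouse WT_Y-374. A second Btg2 probe set gave -0.21 (SE 0.12, adjusted p = 1 by limma).

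Ier2, the nuclear protein gene, read 175.7, 131.3, 88.4 and 144.6 in WT_Y and 96.0, 83.6, 83.6 and 106.6 in WT_AI. The lowest WT_Y mouse, WT_Y-373, lay within the WT_AI range, and the other 3 lay above it. The log2 fold change was -0.51 (SE 0.19, limma adjusted p = 0.774, exact permutation p = 0.0857), with an interval from -0.91 to -0.11. Gadd45g, the stress signalling gene, lay between 208.5 and 255.8 in WT_Y and between 169.6 and 210.5 in WT_AI, a log2 fold change of -0.27 (SE 0.08, limma adjusted p = 0.506, exact permutation p = 0.0571). Its groups met at their edges, the highest WT_AI mouse at 210.5 lying above the lowest WT_Y mouse.

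None of the 9 genes tested was called for WT_AI against WT_Y, where 0.141% of all probe sets were called. At an unadjusted p under 0.05, 5 of 9 were lower in WT_AI (Arc, Dusp5, Gadd45g, Btg2 and Ier2), against 2.37% of all probe sets lower at that level. Arc had been picked from these same mice and the other genes were chosen with earlier results known. This count is therefore not independent evidence. The median log2 fold change of the 9 genes was -0.32, beside -0.01 over all probe sets. WT_Y-369 and WT_Y-374, the mice of highest Alb, were 2 of the 4 mice behind the young values. Without the 4 arrays of highest Alb, 2 genes (Dusp5 and Gadd45g) remained at an unadjusted p under 0.05, the median was -0.23, and the log2 fold change of Arc was -0.35. Without mouse WT_Y-369 alone 3 genes remained at that level, and Arc was not among them. Arc was also missing without WT_Y-371, WT_Y-374, WT_AI-21 or WT_AI-49, where 4 genes remained each time. Without WT_Y-373, 6 genes had such a p, Arc among them. The part of the 4 arrays of highest Alb in the result was not tested further.

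For WT_AI against WT_Y, the log2 fold changes of Homer1, Vgf, Bdnf and Nptx2 were -0.03, 0.003, 0.10 and 0.08. Arc, which also acts at the synapse, had a lower mean in WT_AI, as given above. Homer1 lay between 1107.0 and 1254.7 in WT_Y and between 1091.8 and 1203.2 in WT_AI, and Vgf between 1196.8 and 1356.9 in WT_Y and between 1191.7 and 1340.4 in WT_AI. Their group ranges overlapped, and which Homer1 form its probe set reads is not given in the sources used here. Bdnf read 447.9, 422.0, 516.1 and 273.3 in WT_Y and 428.2, 406.2, 441.2 and 457.0 in WT_AI, so that the WT_AI mice lay inside the young range. Nptx2 lay between 57.4 and 72.8 in WT_Y and between 68.4 and 73.6 in WT_AI, below 100 in every mouse.

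**Figure D2:**
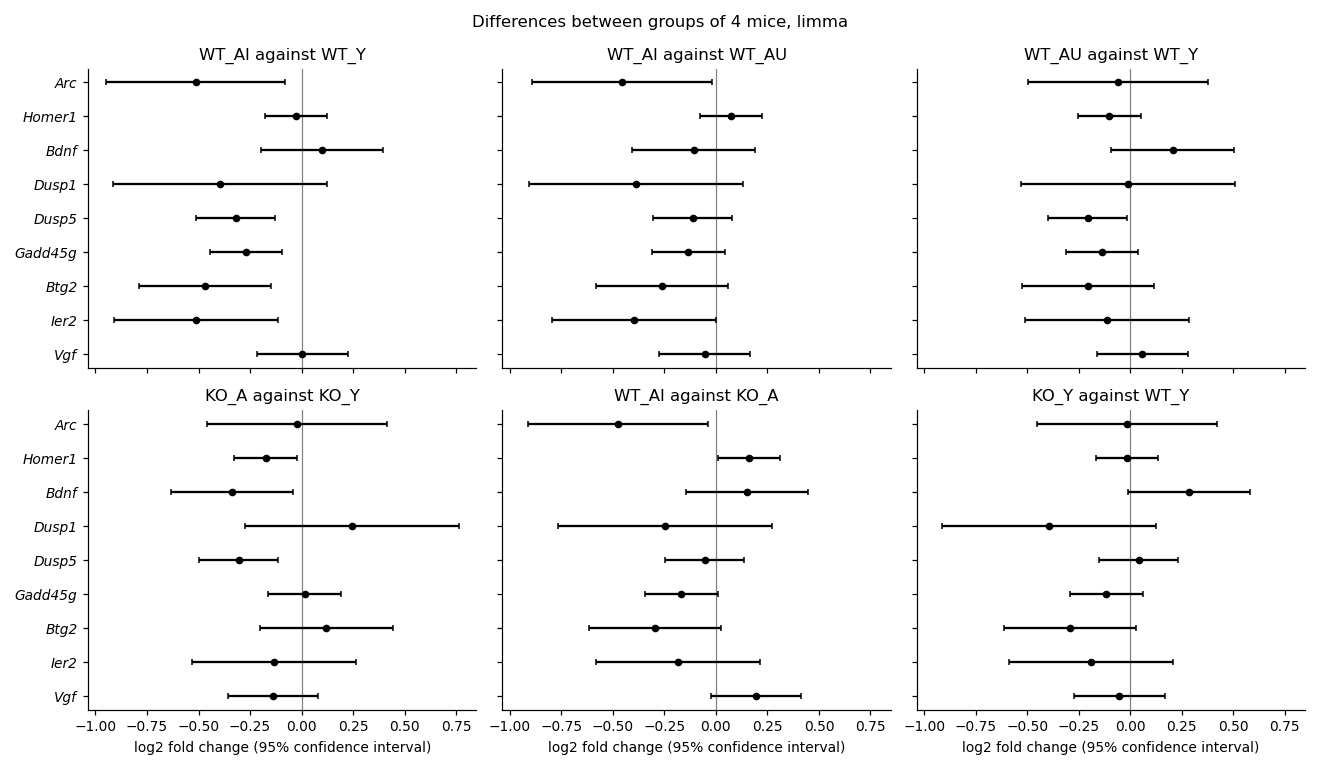
Log2 fold change (horizontal axes) of the 9 genes tested (vertical axes) in the 6 comparisons of 2 groups, as points with 95% confidence intervals from limma and the line at 0 marking no difference. For WT_AI against WT_Y the intervals of Arc, Dusp5, Gadd45g, Btg2 and Ier2 lie below 0 before adjustment for the 16995 probe sets tested.

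Between the aged wild-type groups, which differ in memory, Arc and Ier2 had the lowest p. In WT_AU the Ier2 intensities were 138.1, 104.4, 144.8 and 103.4, and 1 of the 4 WT_AI mice, WT_AI-51, reached into this range at 106.6. Its log2 fold change for WT_AI against WT_AU was -0.40 (SE 0.19, limma adjusted p = 1, exact permutation p = 0.0857). Thus 2 of 9 genes were lower at an unadjusted p under 0.05, with 0.677% of all probe sets lower at that level. Arc, 1 of the 2, had been picked by the study from these same mice, so that this count is not independent evidence. No member was called, nor was any probe set (0.0%). At an unadjusted p under 0.05 limma found 150 probe sets in either direction. The 2 of 9 became 0 without any 1 of the mice WT_AU-126, WT_AU-26, WT_AI-14, WT_AI-21 and WT_AI-49, and 5 with array weights (Arc, Dusp1, Gadd45g, Btg2 and Ier2). Leaving out the 4 arrays of highest Alb, none of which is in these groups, changed the shared spread alone, and 3 genes (Dusp1, Btg2 and Ier2) then had an unadjusted p under 0.05.

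For the memory-unimpaired mice the median log2 fold change over the 9 genes was -0.10. For WT_AU against WT_Y, Dusp5 was the 1 gene of 9 with an unadjusted p under 0.05, in a comparison where 2.42% of all probe sets were lower at that level. It read 162.1, 150.0, 184.9 and 190.1 in WT_AU, of which 2 lay below the lowest WT_Y mouse, and its log2 fold change was -0.21 (SE 0.09, limma adjusted p = 0.772, exact permutation p = 0.114). No member was called, beside 0.43% of all probe sets. The 1 of 9 became 0 with centred arrays, in a fit of these groups alone and without WT_Y-369, WT_Y-371, WT_Y-374, WT_AU-126 or WT_AU-23. It was also 0 without the 4 arrays of highest Alb, where the median was 0.01. With array weights 2 genes had such a p (Dusp5 and Gadd45g), and without WT_Y-373 it was 3 (Bdnf, Dusp5 and Btg2), Bdnf being higher.

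With age in the knockout mice, Dusp5, Bdnf and Homer1 had the lowest p of the 9 genes. Dusp5 read 198.9, 222.2, 217.5 and 176.9 in KO_Y and 173.0, 186.6, 151.2 and 149.0 in KO_A, with 1 KO_A mouse above the lowest KO_Y mouse. Its log2 fold change was -0.31 (SE 0.09, limma adjusted p = 0.0791, exact permutation p = 0.0571), beside -0.32 for WT_AI against WT_Y, and the difference between these age effects was 0.01 (SE 0.13, 95% confidence interval -0.26 to 0.28, adjusted p = 0.981 by limma). Bdnf, the neurotrophin gene, read 535.0, 440.4, 478.5 and 520.1 in KO_Y and 476.0, 368.5, 361.1 and 362.9 in KO_A. In 3 of 4 KO_A mice Bdnf lay below all KO_Y mice, and mouse KO_A-41 lay within their range, for a log2 fold change of -0.34 (SE 0.14, limma adjusted p = 0.185, exact permutation p = 0.0571). Homer1 read 1114.9, 1193.8, 1138.6 and 1209.0 in KO_Y and 1186.6, 1083.2, 967.1 and 907.6 in KO_A, again with mouse KO_A-41 alone inside the young range. Its log2 fold change was -0.17 (SE 0.07, limma adjusted p = 0.179, exact permutation p = 0.114).

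No member was called for KO_A against KO_Y, where 2.41% of all probe sets were, and 3 of 9 were lower at an unadjusted p under 0.05, against 5.9% of all probe sets. The 3 became 1, Dusp5, without mouse KO_Y-585, KO_A-222 or KO_A-223. Without mouse KO_A-41, Homer1 (adjusted p = 0.0224 by limma) and Dusp5 (adjusted p = 0.0325) were called, and Dusp5 was called without KO_Y-585 (adjusted p = 0.0456) or KO_A-42 (adjusted p = 0.0489). With array weights, which gave KO_A-41 a weight of 0.289 and KO_A-42 one of 0.315, all 3 genes were called, Bdnf at an adjusted p of 0.0123. Markers of other cells moved in the same comparison: 4 of 5 microglial markers tested and 1 of 6 astrocyte markers were called higher in KO_A. The mean log2 level of the 6 astrocyte markers, relative to all 20 mice, ranged from -0.22 to 0.04 in KO_Y and from -0.04 to 0.36 in KO_A. The mean of the 4 dentate granule cell markers tested ranged from -0.24 to 0.44 in KO_Y and from -0.26 to -0.03 in KO_A, with none of them called. The part of these cells in the lower Bdnf, Homer1 and Dusp5 means was not tested.

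WT_AI and KO_A are the 2 aged groups that differ in genotype and memory. Between them, Arc was lower and Homer1 higher in WT_AI at an unadjusted p under 0.05, 2 of 9 genes beside 10.7% of all probe sets. Arc had been picked by the study from these same mice. The Homer1 log2 fold change was 0.16 (SE 0.07, limma adjusted p = 0.453, exact permutation p = 0.171), and another Homer1 probe set gave 0.06 (limma adjusted p = 0.732). None was called, beside 0.0118% of all probe sets. Neither gene had an unadjusted p under 0.05 without WT_AI-14, WT_AI-21 or WT_AI-49, Arc had none with centred arrays, without the 4 arrays of highest Alb, without KO_A-42 or without KO_A-223, and Homer1 had none without KO_A-222, without KO_A-223, in a fit of these groups alone or as the mean of all its probe sets. Between the young groups, KO_Y and WT_Y, none of 9 was called (0.129% of all probe sets) and none had an unadjusted p under 0.05 (3.71% of all probe sets). Nptx2, outside the fit, read 83.1, 83.6, 80.4 and 79.6 in KO_Y and 72.8, 72.8, 68.0 and 57.4 in WT_Y. All KO_Y mice lay above all WT_Y mice (exact permutation p = 0.0286, the smallest possible), as 1.21% of all probe sets tested were higher with no overlap. The log2 fold change was 0.28, and that of the other Nptx2 probe set was also 0.28 (exact permutation p = 0.0857). These intensities are low, and over the 20 mice the 2 probe sets had an r of -0.09.

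The age effect was also compared between genotypes, as KO_A minus KO_Y less WT_AI minus WT_Y. No member was called, nor was any probe set (0.0%), while 1575 probe sets (9.27%) and 3 of the 9 genes had an unadjusted p under 0.05. Btg2 was higher in this difference by 0.59 (SE 0.22, adjusted p = 0.529 by limma) and Gadd45g by 0.28 (SE 0.12, adjusted p = 0.529), while Bdnf stood at -0.44 (SE 0.20, adjusted p = 0.535). Btg2 read 219.7, 254.7, 271.6 and 257.3 in KO_Y and 239.1, 327.2, 253.5 and 275.2 in KO_A, so that its knockout groups overlapped, and its second probe set gave 0.29 (SE 0.17, adjusted p = 0.588 by limma). The Bdnf difference was -0.25 without mouse WT_Y-374, whose Bdnf was the lowest of all 20. No gene of the 9 had an unadjusted p under 0.05 here once the 4 arrays of highest Alb were left out.

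The members varied between mice of the same group to very different extents. The SD of log2 intensity within groups was 0.39 for Dusp1, 0.32 for Arc, 0.29 for Ier2, 0.24 for Btg2 and 0.22 for Bdnf. The SD over all probe sets tested had a median of 0.12, and that of Arc was larger than that of 97.2% of them. The SD of Vgf was 0.16, larger than that of 75.7% of probe sets, and Dusp5 (0.13), Gadd45g (0.12), Nptx2 (0.12) and Homer1 (0.10) lay nearer the median.

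Arc varied with 2 of the other 9 genes over the 20 mice once group means were subtracted, Dusp1 and Ier2. For Arc and Dusp1, Pearson's r was 0.74 and Spearman's rho 0.74 (n = 20, two-sided permutation p = 0.00164 for r and 0.00239 for rho). After Benjamini-Hochberg adjustment over the 45 pairs of the 10 genes these were 0.0191 and 0.031. For Arc and Ier2, r was 0.72 and rho 0.75 (permutation p = 0.00068 and 0.00035, adjusted 0.0191 and 0.0158). Without the 2 mice farthest from the Arc median, WT_AI-49 and WT_AI-21, r was 0.76 for Dusp1 and 0.70 for Ier2. The mouse lowest in Arc was also the lowest in Dusp1 in 4 of 5 groups, and the mouse highest in Arc was the highest in Ier2 in 4 of 5 groups. The highest mouse was shared with Dusp1 in 1 of 5 groups and the lowest with Ier2 in 2 of 5. Among the 16994 other probe sets tested, Dusp1 ranked 13th and Ier2 19th by their r with Arc, and the median r of all was 0.02.

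Dusp5 followed Arc less closely (r = 0.63, rho = 0.57, permutation p = 0.00946 and 0.0198, adjusted 0.0579 and 0.111), at rank 74. Btg2 came next with r = 0.52 (adjusted permutation p = 0.169) at rank 316. Gadd45g (0.32), Vgf (0.29), Nptx2 (-0.05), Bdnf (-0.27) and Homer1 (-0.27) did not pass, and an r of this size over 20 mice leaves their relation to Arc undetermined. The check probe sets gave Bdnf an r of 0.11 with Arc and Btg2 one of 0.69, while the 5 of Homer1 lay between -0.31 and 0.08.

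**Figure D3:**
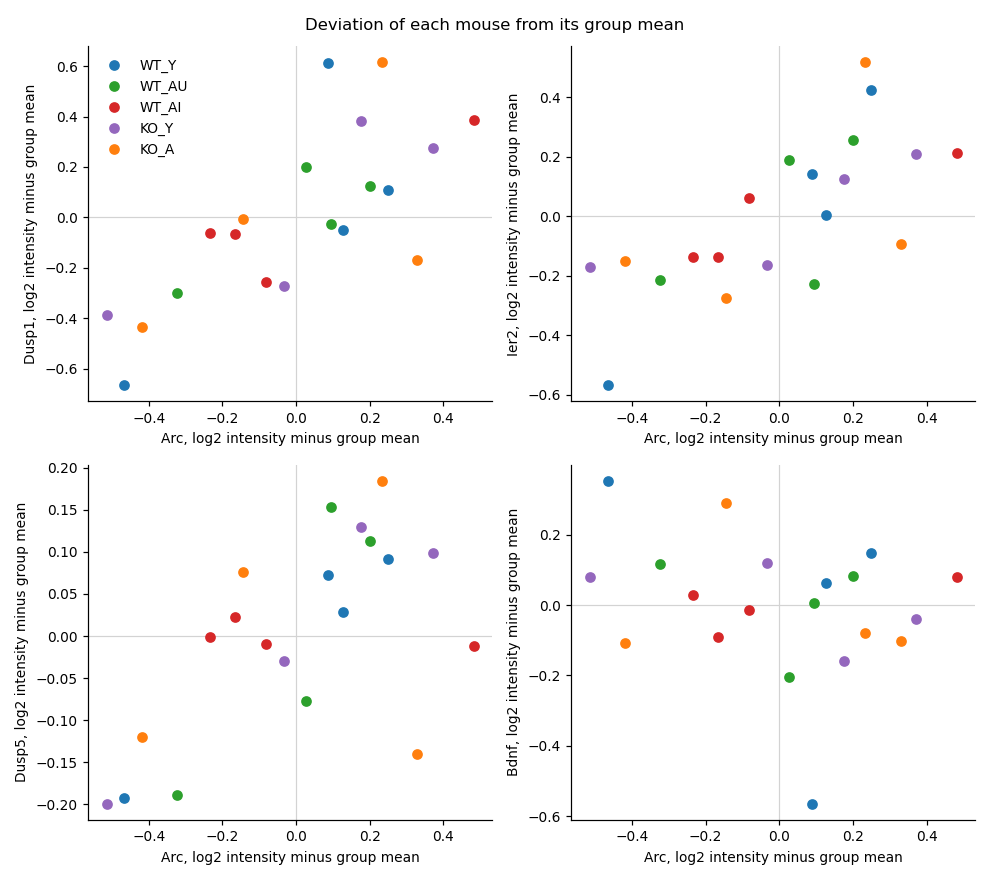
Deviation of each mouse from its group mean, in log2 units, for Arc (horizontal axes) against Dusp1, Ier2, Dusp5 and Bdnf (vertical axes), with 1 point per mouse coloured by group. Dusp1, Ier2 and Dusp5 run upwards with Arc (r = 0.74, 0.72 and 0.63), and Bdnf does not (r = -0.27), with mouse WT_Y-374 far below the rest.

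**Figure D4:**
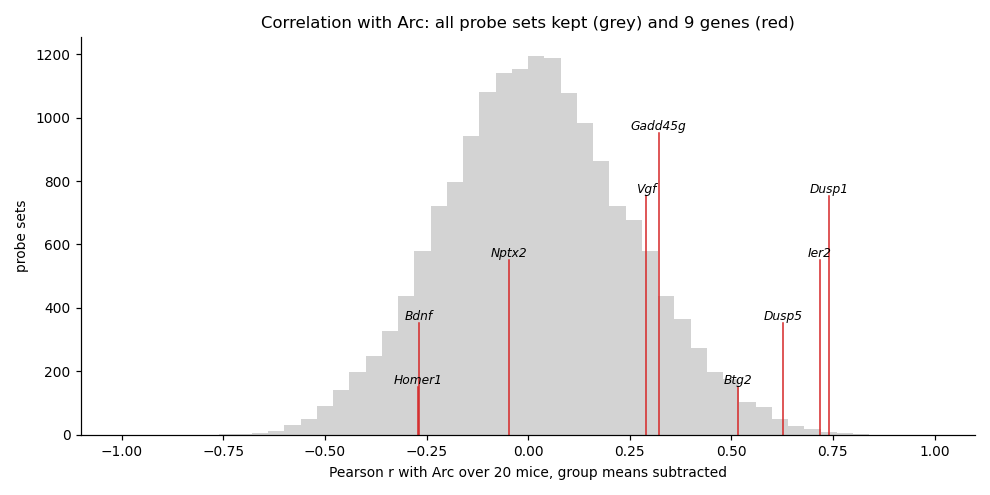
Distribution of Pearson's r with Arc over 20 mice, group means subtracted (horizontal axis), for all probe sets tested other than Arc (grey bars, number of probe sets on the vertical axis), with the other 9 genes as red lines whose height has no meaning. Dusp1 and Ier2 lie at the upper edge, and Homer1 and Bdnf lie below 0.

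Dusp1 stood at the centre of the pairs. Of the 45 pairs, 5 had an adjusted permutation p under 0.05 by r, all above 0, and 4 of these also by rho. Besides its pair with Arc, Dusp1 varied with Ier2 (r = 0.79, rho = 0.75), Dusp5 (r = 0.74, rho = 0.74) and Btg2 (r = 0.76, rho = 0.60, the last with an adjusted permutation p of 0.111 by rho). Over leaving out each mouse in turn, these r stayed between 0.66 and 0.84. Without the 4 arrays of highest Alb they were 0.74 for Ier2, 0.63 for Dusp5 and 0.59 for Btg2. Gadd45g varied most with Ier2 (r = 0.69, adjusted permutation p = 0.0512), and Vgf with Dusp5 (r = 0.70, adjusted permutation p = 0.0579). Bdnf ran against Btg2 (r = -0.67, adjusted permutation p = 0.191), but without mouse WT_Y-374 this r was -0.34. The 3 genes whose promoter letters are shown with a CRE or CArG box, Dusp1, Btg2 and Dusp5, gave an r of 0.33 between Btg2 and Dusp5.

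**Figure D5:**
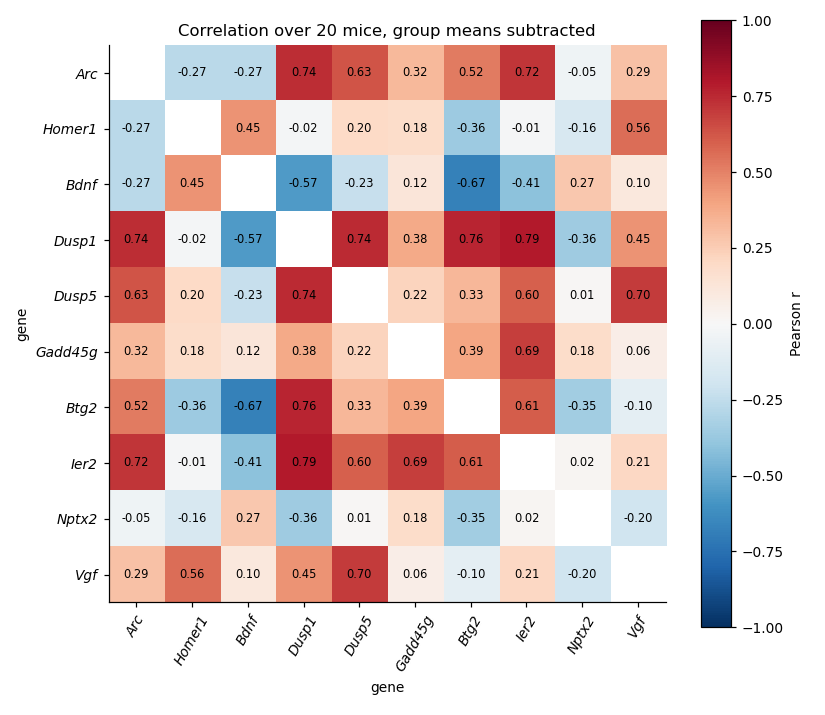
Pearson's r between each pair of the 10 genes over 20 mice with group means subtracted, from -1 (blue) to 1 (red), with the value in each field and both axes listing the genes. Pairs among Arc, Dusp1, Dusp5, Btg2 and Ier2 run from 0.33 to 0.79. Pairs with other genes also reach such values, as Dusp5 with Vgf (0.70) and Gadd45g with Ier2 (0.69). The rows of Bdnf, Homer1 and Nptx2 hold most of the values below 0.

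Over leaving out each mouse in turn, the r of Arc stayed between 0.67 and 0.83 for Dusp1 and between 0.64 and 0.79 for Ier2, while the adjusted p passed or not with the mouse left out. Without mouse WT_Y-373, r was 0.67 for Dusp1 and 0.64 for Ier2 and neither had an adjusted permutation p under 0.05, and the same held without WT_AI-51 (r = 0.71 for both). Without KO_A-42 or without KO_A-222, 1 of the 2 passed, Ier2. Without KO_A-223, r was 0.80 for Dusp5, and 3 genes passed. In the 12 wild-type mice alone r was 0.77 for Dusp1 and 0.81 for Ier2, with adjusted permutation p of 0.224 and 0.184. Without the 4 arrays of highest Alb r was 0.83 and 0.72, with adjusted permutation p of 0.132 for both.

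The genes most like Arc over the 20 mice, ranked by r among probe sets with 1 symbol, began with Alkbh1 (0.82), Nup54 (0.81), Galnt13 (0.81) and Fbxl20 (0.79). Npas4 (0.78), a transcription factor induced by neuronal activity alone, was next, followed by Cyhr1 (0.76), Nr4a1 (0.76), Hspa8 (0.76), Per1 (0.75) and Ahsa1 (0.75). These r are the highest of 16994 and are given as a description. Of 27 other activity-regulated genes tested, 19 had an r with Arc above 0 and 7 an r of 0.6 or more (Npas4, Nr4a1, Per1, Junb, Egr1, Fos and Egr4), beside 0.653% of all probe sets. Their median r was 0.30. Of 16 partners of the members (receptors, scaffolds and kinases), none reached 0.6, and their median r was -0.02. Of 12 glucocorticoid-induced genes, Per1 alone reached 0.6, and their median was 0.25. Per1, Sgk1 and Cdkn1a stand both in this list and among the 27 activity-regulated genes, so that the 2 lists are not separate.

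The same 3 lists were read for the group comparisons. They were chosen with earlier results of these data known, and Npas4, 1 of the 27, had been picked by the study from these same mice. Counts over these lists are therefore not independent evidence. Of the 27 other activity-regulated genes, none was called in 6 of the 7 comparisons, and in KO_A against KO_Y Inhba, a subunit of activin, fell by 0.30 on the log2 scale (SE 0.07, adjusted p = 0.0361 by limma), where 2.41% of all probe sets were called. For WT_AI against WT_Y, 1 of 27 was lower at an unadjusted p under 0.05, beside 2.37% of all probe sets. This was Fos at -0.72 (SE 0.32, adjusted p = 0.982 by limma), and the median of the 27 was -0.03. For WT_AI against WT_AU, 25 of 27 lay below 0, with a median of -0.15, while 54.3% of all probe sets lay below 0. At an unadjusted p under 0.05, 4 were lower (Fos, Fosl2, Nr4a1 and Cdkn1a), beside 0.677% of all probe sets. For WT_AU against WT_Y, which shares the WT_AU mice, 6 of 27 lay below 0, with a median of 0.10, beside 51.1% of all probe sets. At an unadjusted p under 0.05, 4 of the 27 were higher, and the share of all probe sets higher is not given here. For KO_A against KO_Y 20 of 27 lay below 0, with a median of -0.12, beside 43.6% of all probe sets. None of the 16 partners tested was called. Of the 12 glucocorticoid-induced genes, 2 were called, Sult1a1 (log2 fold change 0.59, SE 0.15, adjusted p = 0.0456 by limma) and Pdk4 (0.54, SE 0.13, adjusted p = 0.0362 by limma), both higher in KO_A than in KO_Y, the comparison in which 2.41% of all probe sets were called. In that comparison 5 of the 12 lay below 0, with a median of 0.04, beside 43.6% of all probe sets. For WT_AI against WT_AU all 12 lay below 0, with a median of -0.14, beside 54.3% of all probe sets. Of the 12, 3 were lower at an unadjusted p under 0.05, beside 0.677% of all probe sets. For WT_AU against WT_Y, again with the same WT_AU mice, 1 of 12 lay below 0, with a median of 0.17, beside 51.1% of all probe sets. At an unadjusted p under 0.05, 3 of the 12 were higher, and the share of all probe sets higher is not given here.

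Levels of other cells and tissues moved with several members between mice of the same group. Correlations of the 10 genes with the means of 17 lists were computed, 170 relations in all, adjusted together. Ier2 varied with the mean of 4 tested genes listed as made outside the brain or in the pituitary, which were Alb, Gh, Pomc and Apoa1. For Ier2, r was 0.73 and rho 0.61 (permutation p = 0.00138 and 0.00567, adjusted 0.0419 and 0.0708). Dusp1 (r = 0.72, adjusted permutation p = 0.0527) and Arc (r = 0.61, adjusted permutation p = 0.0673) had values of like size. The mean of that list ranged from -1.34 to 3.33 in WT_Y, from -0.95 to -0.14 in WT_AU, from -1.05 to 1.08 in WT_AI, from -0.61 to 1.35 in KO_Y and from -0.70 to 0.88 in KO_A, in log2 relative to all mice. Mouse WT_AI-51, the highest of its group in Arc, Dusp1, Gadd45g, Btg2 and Ier2, was also the highest of its group in this list. Without the 2 mice farthest out, WT_Y-369 and WT_Y-374, r was 0.61 for Ier2, 0.76 for Dusp1 and 0.66 for Arc. The part of these transcripts in the covariation of Arc, Dusp1 and Ier2 was not tested beyond leaving out arrays.

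Bdnf, Vgf and Gadd45g varied with markers of other cells or of cell layers. Bdnf varied with the 4 dentate granule cell markers tested (r = 0.86, rho = 0.73, permutation p = 0.00058 and 0.00286, adjusted 0.0268 and 0.0608). Mouse WT_Y-374, the lowest in Bdnf, stood at -0.97 in these markers, and without it r was 0.63, or 0.59 without WT_Y-374 and WT_Y-373. Bdnf also varied with the mean of the 16 tested partners of the members (r = 0.69, rho = 0.68, adjusted permutation p = 0.0419 and 0.0482). Without WT_Y-374 this r was 0.55. That list pools partners of all the members and is not one of Bdnf alone. Its r with the 3 CA3 markers tested was 0.76 (rho = 0.76, adjusted permutation p = 0.0527 and 0.0539). Vgf ran against the 6 astrocyte markers (r = -0.81, rho = -0.72, permutation p = 0.00011 and 0.00133, adjusted 0.0187 and 0.0482), and without KO_A-222 and KO_A-223, its lowest mice at 908.3 and 976.9, r was -0.76. With the 6 interneurone markers Vgf had an r of 0.73 (rho = 0.72, adjusted permutation p = 0.0527 and 0.0708). Gadd45g varied with the 5 microglial markers tested by rho (r = 0.57, rho = 0.65, adjusted permutation p = 0.0532 and 0.0482), and its r with the 5 oligodendrocyte markers was 0.68 (rho = 0.60, adjusted permutation p = 0.0527 and 0.105). Nptx2 had an r of 0.75 with the 3 thalamic markers tested (rho = 0.64, adjusted permutation p = 0.0527 and 0.133).

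Arc (r = 0.79, rho = 0.81, adjusted permutation p = 0.0268 and 0.0482) and Dusp5 (r = 0.77, rho = 0.75, adjusted permutation p = 0.0268 and 0.0482) varied with the mean of the 27 other activity-regulated genes. Dusp1 did so by rho (r = 0.72, rho = 0.77, adjusted permutation p = 0.0673 and 0.0482), and Ier2 had values of like size (r = 0.74, rho = 0.70, adjusted permutation p = 0.0527 and 0.0625). Without the 2 mice farthest out in that mean, KO_A-222 and WT_AU-57, r was 0.75 for both Arc and Dusp5, 0.69 for Dusp1 and 0.86 for Ier2.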

How the data were processed

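Total RNA of 20 hippocampi was hybridised to 20 arrays, and the deposited values are RMA intensities that the authors computed in R 2.8.0 with affy, normalising all arrays together, on a linear scale. The 10 genes and the lists of other genes and markers were chosen with earlier results of these data known. Values were taken to log2. Of 45037 probe sets, the 16995 (37.7%) at 100 or more in at least 2 of 20 arrays were tested with limma 3.58.1 in R 4.3.3, as 5 group means with 1 shared spread, and p-values were adjusted by Benjamini-Hochberg over all of them. A gene is given by its probe set of highest mean, and probe sets with several symbols (932) were not used. Single genes also had exact two-sided permutation tests over the 70 splits of 8 mice. Correlations used log2 values with group means subtracted and 100000 permutations of mice within groups.

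The genes named are the 10 members in every comparison, Hsd11b1, the 10 probe sets most like Arc, and those of the lists that were called or had the smallest p. Positions and promoter sequences came from RefSeq (GRCm38.p6), and all 1666 overlapping windows of opposite strand were checked to be reverse complements. Steps were tested on simulated data. Replicates are separate mice, the number of arrays limits the precision, and no scan date was used here. Mice are named by group and label number. Alternatives were no filter, a filter of 4 arrays, fits of the compared groups alone, array weights, an intensity trend in the prior, centring, a repeated quantile normalisation, averaging every probe set of a gene, rank products with 50 permutations, and leaving out each mouse. Leaving out the 4 arrays of highest Alb was chosen after seeing the data. Python 3.11.15, numpy 2.4.6, pandas 2.3.3, scipy 1.17.1 and matplotlib 3.10.9 were used for tables and figures.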

Additional observations from a re-analysis of the deposited data

Results flagged for a closer look

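The 10 genes in 5 groups made 50 sets of 4 mice, and 2 sets held a mouse far from the other 3 by Dixon's criterion, where chance gives about 1 in 20. Bdnf read 476.0 in mouse KO_A-41 and between 361.1 and 368.5 in the other KO_A mice. Btg2 read 274.5 in mouse WT_AI-51 and between 203.8 and 208.6 in the other WT_AI mice.

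In 3 genes every mouse of one comparison lay on one side of its reference mean and every mouse of the matching comparison on the other. The share of all probe sets that meet this rule is not given here. The count therefore does not show that the pattern is unusual. For Bdnf, the age effect was -0.34 (log2) in knockout mice, 0.10 in WT_AI and 0.21 in WT_AU, differences of -0.437 and -0.544. For Gadd45g, the difference between genotypes (knockout minus wild-type) was -0.12 in young mice and 0.17 in aged mice (KO_A against WT_AI), a change of 0.285. For Btg2 these were -0.29 and 0.30, a change of 0.588. Mouse WT_Y-374 stood apart in the WT_Y reference of Bdnf and Btg2. Its Bdnf was 273.3, with the other WT_Y mice between 422.0 and 516.1. Its Btg2 was 439.8, with the other WT_Y mice between 218.1 and 316.6. Whether all mice keep their sides without WT_Y-374 was not tested. In the fit across all probe sets the differences of Bdnf against WT_AI, Gadd45g and Btg2 had adjusted p of 0.535, 0.529 and 0.529 by limma, and that of Bdnf against WT_AU was not tested.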

How the results depend on the processing

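The alternatives were followed for 20 log2 fold changes: those of Arc in every comparison and of members with an unadjusted limma p under 0.05. These kept their direction and stayed uncalled under 557 of 580 alternatives. Of the others 9 became calls, all in the same direction, and 14 turned in sign, all of them for Arc in 3 comparisons whose main value lay near 0. Array weights called 1 gene for WT_AI against WT_Y (Gadd45g, log2 fold change -0.34), 3 for KO_A against KO_Y and 2 for WT_AI against KO_A (Homer1 and Vgf), against 0 without weights. Leaving out each mouse in turn gave 0 to 2 calls for KO_A against KO_Y and 0 in the other comparisons. Rank products with a 1.5-fold change counted no member in the 6 comparisons of 2 groups. Without the fold limit, 6 to 8 of 9 members had a rank products p under 0.05 (7 for WT_AI against WT_Y), as did 25.6% to 35.6% of all probe sets, a p that permutes ranks of probe sets and not mice.

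For Arc in WT_AU against WT_Y the value was 0.11 without the 4 arrays of highest Alb and ranged from -0.21 to 0.05 over leaving out each mouse. For KO_A against KO_Y this range was -0.20 to 0.12. For KO_Y against WT_Y the value was 0.015 with array weights, 0.002 with centred arrays and 0.10 without the 4 arrays of highest Alb, and leaving out each mouse gave -0.17 to 0.16. The number of members correlated with Arc was 2, but 0 in wild-type mice alone and 0 without the 4 arrays of highest Alb, both with fewer mice, and 0 to 3 over leaving out each mouse. The r of Arc with Nptx2, -0.05, was 0.14 as Spearman's rho and 0.24 in wild-type mice alone, and ranged from -0.12 to 0.29 over leaving out each mouse. No paired analysis was possible because the groups share no mouse numbers.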
